A study of Mus musculus with 4 samples.

Results

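Mast cells were described in 4 single-cell RNA sequencing libraries of mouse tibial muscle, in a model of heterotopic ossification (HO), the formation of bone in soft tissue. A cell was taken as a mast cell when its UMIs (unique molecular identifiers, each of which counts 1 captured transcript) of *Cpa3*, *Mcpt4* and *Tpsb2* summed to 10 or more, when it had 0 UMIs of the basophil protease *Mcpt8*, and when mitochondrial genes gave no more than 10% of its UMIs. The rule held for 193 of the 59824 cells within the mitochondrial limit, or 0.323%. The cells were thus chosen by the UMIs of these 3 transcripts and of *Mcpt8*, so their abundance in them is a description, as is every comparison of these cells with all other cells of the same libraries. By the wider marker genes, the name mast cell held for most members from uninjured muscle and from 1 and 3 days after injury, and it held poorly for the library of 7 days, as described below.

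All mice carried Nse-Bmp4 on the C57BL/6 background, a transgene in which the rat neuron-specific enolase promoter drives *Bmp4*, and they were 6 to 8 weeks old. One library came from tibial muscle without injury (Uninjured), and the others from muscle taken 1, 3 or 7 days (dpi, days after the injury) after an injection of cardiotoxin, a snake venom toxin that destroys muscle fibres. Each library pooled 3 muscles that had been digested with collagenase, and no mouse without the transgene was analysed here, so neither the effect of *Bmp4* nor the spread between animals could be read from these libraries. With 1 library a time point, no test between time points was made, and all intervals are 95% intervals that cover counting error only. The libraries held 12031, 11722, 15160 and 23752 barcodes in the order Uninjured, 1, 3 and 7 dpi, and the median depth was 8699, 6032, 4536 and 3140 UMIs per cell within the mitochondrial limit. Pairs of libraries had 30 to 95 barcodes in common, and none of these was shared among the mast cells.

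Mast cells are long-lived immune cells of connective tissue that arise from bone marrow progenitors and mature where they settle, under the control of stem cell factor and its receptor *Kit*. They store histamine, serotonin and heparin-bound proteases in granules and release them when the high-affinity IgE receptor, the alarmin receptor *Il1rl1* or the Mrgprb receptors for basic peptides are engaged. Connective tissue mast cells of the mouse, the type found in muscle along vessels and fascia, are known by the chymases *Mcpt4* and *Cma1*, the tryptases *Tpsb2* and *Tpsab1* and the carboxypeptidase *Cpa3*, while mucosal mast cells are known by *Mcpt1* and *Mcpt2*.

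Among the protease genes that led these cells, some are neighbours in the genome. In GENCODE M21 on GRCm38, *Mcpt4* (chromosome 14, 56059629 to 56062313) and *Cma1* (chromosome 14, 55941451 to 55944675) lie in the same cluster of granule protease genes and *Tpsb2* (chromosome 17, 25366305 to 25369098) lies beside *Tpsab1* (chromosome 17, 25343245 to 25345562). *Cpa3* (chromosome 3, 20215620 to 20242181) stands apart, as do *Kit* (chromosome 5, 75574916 to 75656722) and *Hdc* (chromosome 2, 126593667 to 126619299), the gene of histidine decarboxylase, which makes histamine. The sequences upstream of *Cpa3*, *Mcpt4* and *Cma1*, whose proportions differed between the libraries, are shown because GATA2, a transcription factor that mast cells require, binds a core that contains GATAA, and *Gata2* was itself among the genes that led these cells. They are the 250 bases before the start in RefSeq on GRCm38.p6, at chr3:20242182-20242431, chr14:56062311-56062560 and chr14:55944676-55944925, 5′ to 3′ on the minus strand, with GATAA or its reverse complement TTATC in capitals.
Cpa3: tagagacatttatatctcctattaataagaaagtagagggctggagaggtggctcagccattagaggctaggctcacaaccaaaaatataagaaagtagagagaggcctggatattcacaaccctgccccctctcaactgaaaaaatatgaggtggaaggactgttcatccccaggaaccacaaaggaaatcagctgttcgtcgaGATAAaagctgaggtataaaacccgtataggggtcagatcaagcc
Mcpt4: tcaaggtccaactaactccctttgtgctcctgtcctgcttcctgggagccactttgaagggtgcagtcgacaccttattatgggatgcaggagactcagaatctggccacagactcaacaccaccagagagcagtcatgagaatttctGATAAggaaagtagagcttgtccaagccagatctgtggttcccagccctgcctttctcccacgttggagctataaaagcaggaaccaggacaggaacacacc
Cma1: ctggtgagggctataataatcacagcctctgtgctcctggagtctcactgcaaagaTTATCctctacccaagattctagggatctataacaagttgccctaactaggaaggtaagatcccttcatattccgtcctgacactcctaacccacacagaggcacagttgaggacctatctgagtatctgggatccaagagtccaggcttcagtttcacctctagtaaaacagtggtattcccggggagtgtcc
The capitals begin 45, 102 and 194 bases before the start. The motif, searched on both strands from 250 bases before to 50 after the start, was in a promoter of 13 of the 24 mast cell genes that the table holds, of 29 listed, and in 25.4% of all 32851 promoters (28.4% of genes, since a gene can have several). The match is a description of these letters and says nothing about binding.

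The number of mast cells by the rule was 20 in Uninjured, 21 at 1 dpi, 34 at 3 dpi and 118 at 7 dpi. As a share of the cells of the library this was 0.169% (95% exact Clopper-Pearson interval 0.103 to 0.261), 0.194% (0.120 to 0.296), 0.241% (0.167 to 0.336) and 0.513% (0.424 to 0.613). The intervals of the first 3 libraries overlapped, and that of 7 dpi lay above them. The shape behind these counts differed, however. In Uninjured the cells separated cleanly, since 20 cells had 20 or more UMIs of the 3 genes, 1 had 10 to 19 and 2 had 5 to 9, before the limit on *Mcpt8* was applied. At 7 dpi there was no such gap, with 40 cells at 20 or more UMIs, 78 at 10 to 19, 95 at 5 to 9 and 69 at 2 to 4. Cells with any UMI of the 3 genes made up 4.30, 2.35, 2.73 and 2.45% of the cells, so low counts of these transcripts were spread over many cells in all 4 libraries.

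**Figure D1:**
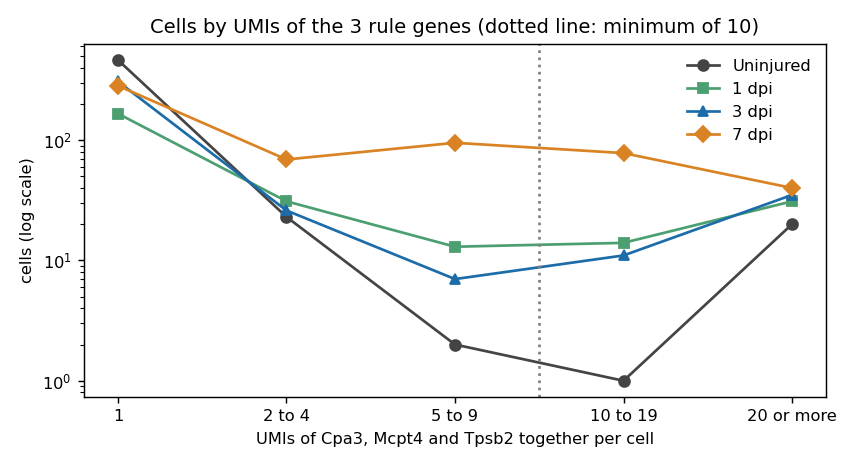
Number of cells (log scale) by the UMIs of *Cpa3*, *Mcpt4* and *Tpsb2* together per cell, in 1 line per library, with a dotted line at the minimum of 10. Uninjured had 2 and 1 cells on either side of the line, and 7 dpi had 95 and 78.

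At 7 dpi the cells next to the limit were alike in depth and in the detection of *Cma1* on both sides of it. The 25 cells with 10 to 12 UMIs had a median of 2594 UMIs in total and the 44 cells with 7 to 9 had 2149, and *Cma1*, which the rule did not use, had a UMI in 22 of the 25 and in 42 of the 44. In the other libraries only 1, 1 and 0 cells lay just inside and 1, 4 and 1 just outside. The limit on *Mcpt8* removed 1, 24, 12 and 0 cells, of which 1, 23, 11 and 0 had *Cpa3* UMIs but none of *Mcpt4* or *Tpsb2*.

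Cells of 3 kinds met the rule, and they were told apart after the data had been seen. The first kind, called the restricted set here, had at least 1 UMI each of *Cpa3*, *Mcpt4* and *Tpsb2* and at most 1% of UMIs from marker lists of fibroblasts, chondrocytes, neutrophils, T and NK cells, B cells, endothelium, skeletal muscle and erythroid cells. It held 11, 15, 25 and 4 cells, or 55 in all. The second kind, the mixed cells, exceeded that 1% and held 9, 2, 7 and 114 cells. The third kind had *Cpa3* alone, with 0 UMIs of *Mcpt4* and *Tpsb2*, and held 4 cells at 1 dpi and 2 at 3 dpi. As a share of all cells the restricted set was 0.0930% (0.0464 to 0.166), 0.138% (0.0774 to 0.228), 0.177% (0.115 to 0.261) and 0.0174% (0.00473 to 0.0445), so that the 7 dpi library, highest by the rule, was lowest by this set. In all other cells these lists took a median of 4.67, 1.37, 2.38 and 5.49% of UMIs. The fixed limit of 1% thus stood at a different distance from each library's median, and its part in the order of these shares was not tested. With a limit of 2% in place of 1% the set held 15, 15, 31 and 5 cells, and 5, 0, 6 and 2 members, those with *Cpa3* alone left aside, lay between 0.5 and 2%.

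**Figure D2:**
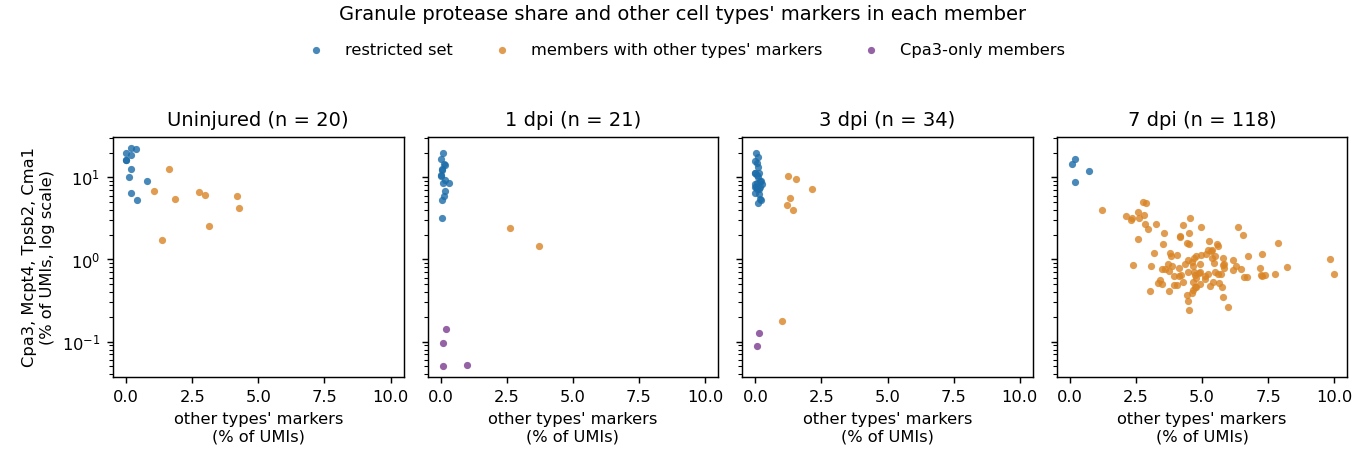
Each point is a mast cell by the rule, with the percent of its UMIs from the 8 marker lists of other cell types (x axis) against the percent from *Cpa3*, *Mcpt4*, *Tpsb2* and *Cma1* (y axis, log scale), in 1 panel per library. The restricted set sits at the upper left in every library, while 114 of the 118 cells at 7 dpi lie to the right of 1%.

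Cells of the restricted set mostly held few UMIs, of which the proteases took a large share. Their UMIs per cell ran from 516 to 1572 (median 798) in Uninjured, 556 to 8805 (1949) at 1 dpi, 546 to 3576 (1216) at 3 dpi and 559 to 5399 (1111) at 7 dpi. Each median was below that of all cells of the library, though the deepest cells at 1 and 7 dpi were above it. *Cpa3*, *Mcpt4*, *Tpsb2* and *Cma1* together took a median of 16.5% of a cell's UMIs in Uninjured (5.26 to 22.7), 10.3% at 1 dpi (3.17 to 19.9), 8.52% at 3 dpi (4.90 to 20) and 13.3% at 7 dpi (8.67 to 16.6). The ranges overlapped between all 4 libraries. At 7 dpi the deepest of the 4 cells held 66% of the set's 8180 UMIs, so levels there were mostly those of 1 cell. The median mitochondrial share of the restricted cells was 2.54% in Uninjured and 6.24, 5.63 and 5.26% at 1, 3 and 7 dpi, so it differed together with every contrast of an injured library with Uninjured, and its part in them was not tested. The gene of the common leukocyte antigen, *Ptprc*, had a UMI in 2, 6, 6 and 0 of these cells. Of the macrophage and monocyte list, *C1qa*, *C1qb*, *C1qc*, *Cd68* and *Csf1r* had 0 UMIs in the restricted set, and *Apoe*, which mast cells and many other cells express, gave 2870, 2914, 2675 and 5868 of the list's 3075, 2994, 2732 and 5868 CPM.

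**Figure D3:**
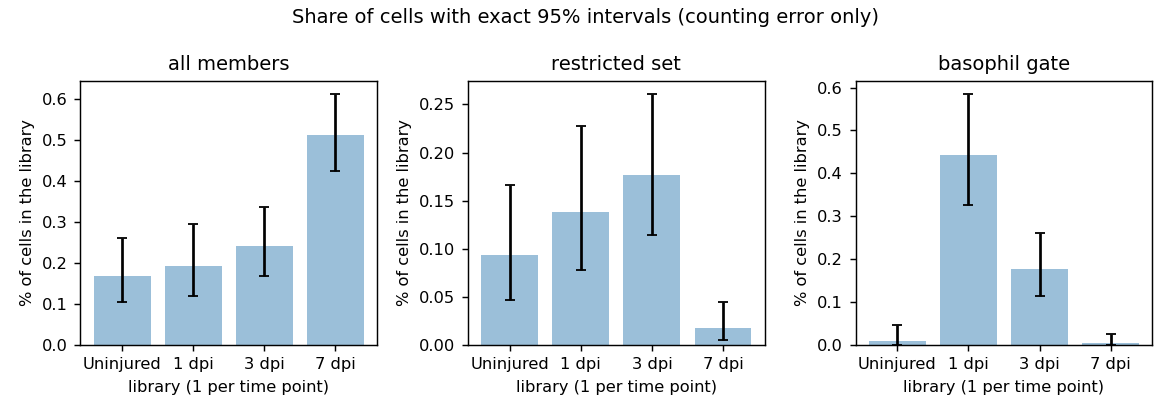
Share of the cells of each library (bars, percent, from 0) with exact 95% intervals for all members, for the restricted set and for cells gated as basophils by *Mcpt8*. All members are highest at 7 dpi with 0.513%, and the restricted set is highest at 3 dpi with 0.177%.

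Across the libraries, the genes that led the mast cells over all other cells included genes of granules and of mast cell receptors, beside genes of neither kind. Ranked by the mean over the 4 libraries of the log2 ratio, with 10 CPM added (CPM being UMIs scaled to the same total for each set of cells), the proteases came first, with *Mcpt4* at 9.94, *Cma1* at 9.75, *Tpsb2* at 8.78 and *Cpa3* at 8.46. *Hdc* followed at 5.15, and then *Mrgprb1*, a receptor of the Mrgprb family, at 5.11, *Fcer1a*, the IgE-binding chain, at 4.79 and *Kit* at 4.61. *Tph1*, which makes serotonin, stood at 4.35, *Gata2* at 4.23 and the serotonin transporter *Slc6a4* at 4.22. The receptor *Il1rl1* had 4.10, the steroid enzyme *Cyp11a1* 4.07, *Tpsab1* 4.03 and *Atp8b5* 3.75. The list closed with the vesicular amine transporter *Slc18a2* at 3.62, the IgE receptor beta chain *Ms4a2* at 3.57, the cytokine *Il4* at 3.50, *Kcne3* at 3.47 and *Slc45a3* at 3.39. All 20 were higher in the mast cells than in the other cells of each of the 4 libraries, which the ranking required.

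The restricted set had larger values for most of them. Its mean log2 ratio was 11.72 for *Mcpt4*, 11.59 for *Cma1*, 6.87 for *Hdc*, 6.84 for *Mrgprb1*, 6.57 for *Fcer1a*, 6.33 for *Kit* and 5.58 for *Gata2*. *Il1rl1* had 3.99 there, with 0 UMIs in the 4 cells of 7 dpi, and for *Slc18a2* and *Il4* the 7 dpi cells had 0 as well. *Mcpt1* had 0 UMIs in the restricted set of every library and *Mcpt2* had 1, at 3 dpi, so the markers of mucosal mast cells were at or near 0 beside 768, 1297, 884 and 442 UMIs of *Mcpt4*.

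The make-up of the protease transcripts differed between the libraries more than their total did. In the restricted set *Mcpt4* gave 54.6% of the UMIs of the 4 proteases in Uninjured, 32.7% at 1 dpi, 24.3% at 3 dpi and 36.0% at 7 dpi. *Cma1* gave 29.8, 35.2, 45.8 and 32.2%, *Cpa3* gave 7.04, 16.5, 16.2 and 12.3%, and *Tpsb2* gave 8.60, 15.5, 13.7 and 19.5%. *Mcpt4* was thus the most abundant protease transcript in Uninjured and at 7 dpi, and *Cma1* at 1 and 3 dpi. Single cells showed the same order with overlap. The *Mcpt4* share ran from 40.3 to 70.3% (median 55.3) over 11 cells in Uninjured, from 18 to 61.5% (32.6) over 15 cells at 1 dpi, from 9.33 to 47.9% (23.4) over 25 cells at 3 dpi and from 33.8 to 47.1% (40.8) over 4 cells at 7 dpi. The *Cma1* share ran from 13.7 to 48.0% (29.0), 19.2 to 50% (40.4), 15.5 to 63.5% (42.4) and 25.4 to 38.8% (32.7) in the same order.

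**Figure D4:**
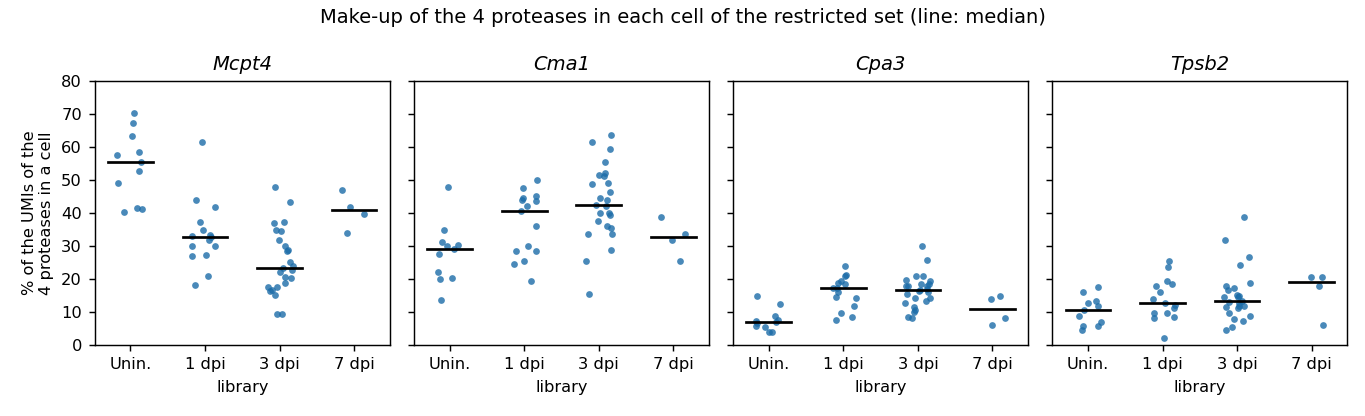
Percent of the UMIs of *Mcpt4*, *Cma1*, *Cpa3* and *Tpsb2* together that each gene gave in every cell of the restricted set (points), with the median as a line, by library. The *Mcpt4* median is 55.3% in Uninjured and 23.4% at 3 dpi, and the points of both libraries overlap between 40.3 and 47.9%.

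Ratios within the cells do not depend on the total. There were 0.546 (95% interval 0.483 to 0.615) *Cma1* UMIs per *Mcpt4* UMI in the restricted set of Uninjured, 1.08 (0.998 to 1.16) at 1 dpi, 1.89 (1.74 to 2.05) at 3 dpi and 0.894 (0.778 to 1.03) at 7 dpi. *Cpa3* UMIs per *Mcpt4* UMI were 0.129 (0.104 to 0.159), 0.506 (0.460 to 0.556), 0.669 (0.601 to 0.743) and 0.342 (0.282 to 0.412). Both ratios were lowest in Uninjured and highest at 3 dpi. They are a description, since *Mcpt4* and *Cpa3* chose the cells and each library is 1 pool. All 193 members gave 0.501, 1.08, 1.87 and 0.843 *Cma1* UMIs per *Mcpt4* UMI, and at 7 dpi 0.434 (0.397 to 0.475) *Cpa3* UMIs per *Mcpt4* UMI, above the restricted set. Without the deepest cell of the restricted set at 7 dpi, the other 3 cells gave 0.793 *Cma1* and 0.2 *Cpa3* UMIs per *Mcpt4* UMI. Whether mice, digestion or time set these ratios cannot be told apart with 1 pool a time point.

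As a level, in CPM of UMIs and not divided by gene length because a transcript gives 1 tag, *Mcpt4* differed most among the 4 proteases at 1 and 3 dpi. Of all UMIs of the restricted set, *Mcpt4* took 78710 CPM in Uninjured, 34990 at 1 dpi, 25150 at 3 dpi and 54030 at 7 dpi, which was 2.25-fold lower at 1 dpi (2.06 to 2.46), 3.13-fold lower at 3 dpi (2.84 to 3.45) and 1.46-fold lower at 7 dpi (1.29 to 1.64). At 1 dpi 1 cell of 8805 UMIs held 362 of the 1297 *Mcpt4* UMIs. *Cma1* had 42940, 37690, 47400 and 48290 CPM, a ratio to Uninjured of 0.878 (0.786 to 0.981), 1.10 (0.991 to 1.23) and 1.12 (0.978 to 1.29). *Cpa3* had 10150, 17700, 16820 and 18460 CPM, 1.74-fold (1.41 to 2.18), 1.66-fold (1.34 to 2.07) and 1.82-fold (1.40 to 2.37) higher. *Tpsb2* had 12400, 16590, 14230 and 29220 CPM, with ratios of 1.34 (1.10 to 1.64), 1.15 (0.939 to 1.41) and 2.36 (1.89 to 2.96). Without the deepest cell at 7 dpi, the ratio of *Cpa3* there was 0.992 (0.628 to 1.52) and that of *Tpsb2* 1.57 (1.11 to 2.17). *Mcpt4*, *Cpa3* and *Tpsb2* chose the cells, so these values are a description of the chosen cells. The second tryptase, *Tpsab1*, had 1 UMI in 1 of 11 cells in Uninjured, 13 UMIs in 8 of 15 at 1 dpi, 34 in 13 of 25 at 3 dpi and 8 in 2 of 4 at 7 dpi, a CPM ratio of 9.44 at 3 dpi with a wide interval (1.58 to 384).

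The genes of histamine synthesis and storage, *Kit* and *Mrgprb1* followed no single pattern in the restricted set. *Hdc* had 42, 153, 134 and 12 UMIs, or 4305, 4128, 3813 and 1467 CPM, so that the first 3 libraries lay close together and 7 dpi was 2.93-fold below Uninjured (1.52 to 6.12), with 10 of its 12 UMIs in the deepest cell. *Kit* had 13, 56, 44 and 6 UMIs and 1332, 1511, 1252 and 734 CPM, and each interval of its ratio to Uninjured included 1. *Srgn*, the core protein of serglycin that holds the proteases in the granule, had 3895, 4856, 4012 and 6846 CPM. *Mrgprb1* had 922, 1457, 1508 and 856 CPM from 9, 54, 53 and 7 UMIs. The serotonin genes *Tph1* (9, 20, 37 and 3 UMIs) and *Slc6a4* (7, 28, 22 and 5 UMIs) had ratios to Uninjured whose intervals all included 1. *Slc18a2*, which loads amines into granules, had 0 UMIs in 9757 in Uninjured, 24 at 1 dpi in 11 of 15 cells, 28 at 3 dpi in 14 of 25 cells and 0 at 7 dpi. With Uninjured set to a floor of 3 UMIs its ratio was 2.11 at 1 dpi and 2.59 at 3 dpi. These ratios leave out the counting error of the injured library. In Uninjured 2 UMIs of a mixed cell show that mast cells by the rule were not all without it.

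Of the chains of the IgE receptor, *Fcer1g* was lower at 1 and 3 dpi, and *Fcer1a* had too few UMIs in Uninjured for a direction. *Fcer1a* had 4, 36, 46 and 18 UMIs in the restricted set and 410, 971, 1309 and 2200 CPM, which was 3.19-fold (1.17 to 12.2) above Uninjured at 3 dpi and 5.37-fold (1.77 to 21.8) at 7 dpi. The 18 UMIs of 7 dpi were in 2 of 4 cells, 17 of them in the deepest cell, without which the ratio was 0.877 (0.0178 to 8.86), and without the deepest cell at 3 dpi it was 2.47 (0.877 to 9.62). *Fcer1g*, the signalling gamma chain that many immune cells share, had 55, 100, 95 and 28 UMIs and was 2.09-fold lower at 1 dpi (1.48 to 2.93), 2.09-fold lower at 3 dpi (1.47 to 2.94) and 1.65-fold lower at 7 dpi (1.03 to 2.70), where it was at 1.08 (0.590 to 1.90) without the deepest cell. Over all other cells of the same libraries *Fcer1g* was 5.63 times its Uninjured level at 1 dpi and 2.55 times at 3 dpi. *Ms4a2* had 1, 13, 18 and 5 UMIs, too few for a direction. *Il1rl1*, the receptor for the alarmin IL-33, had 3, 68, 43 and 0 UMIs in 3 of 11, 13 of 15, 15 of 25 and 0 of 4 cells, which was 5.97-fold above Uninjured at 1 dpi (1.96 to 29.7) and 3.98-fold at 3 dpi (1.27 to 20.1), beside ratios of 2.11 and 1.86 in all other cells, of which 1.97, 2.40, 3.88 and 2.31% had a UMI of it.

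**Figure D5:**
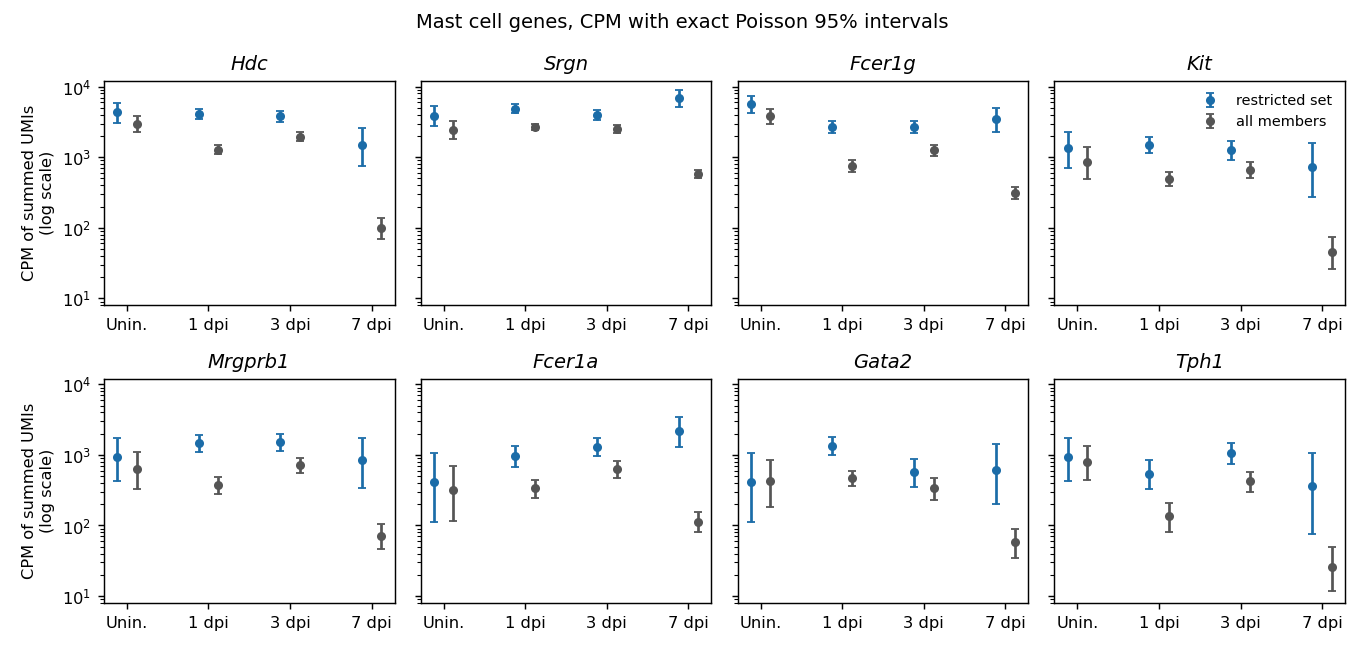
Levels of 8 mast cell genes that did not choose the cells, in CPM of summed UMIs (log scale) with exact Poisson 95% intervals, by library, for the restricted set and for all members. In all members *Hdc* is at 2981 CPM in Uninjured and 100 at 7 dpi, and in the restricted set at 4305 and 1467.

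Over the genes with at least 30 UMIs in both libraries together, called higher or lower at a CPM ratio of 2 or more or of 1/2 or less, the restricted set had 116 genes to count at 1 dpi. Of them 25.9% were higher and 10.3% lower, with a median log2 ratio of 0.20. At 3 dpi 108 genes could be counted, with 18.5% higher and 14.8% lower (median 0.14), and at 7 dpi 46, with 23.9% higher and 8.7% lower (median 0.38). Of the 24 mast cell genes outside the rule, 7 could be counted at 1 dpi and 9 at 3 dpi. Those past the ratio of 2 were *Fcer1a*, *Gata2* and *Il1rl1* at 1 dpi and *Fcer1a*, *Tpsab1* and *Il1rl1* at 3 dpi. Each of these had 1 to 4 UMIs in the 9757 of Uninjured and reached 30 through the injured library, which held 37068 or 35145 UMIs, so the filter could pass them only where they were high and their number is no support for a direction. Without the deepest cell at 1 dpi *Fcer1a* was at 1.81 (0.612 to 7.26), under the ratio of 2. At 7 dpi 2 could be counted, with 0 higher and 1 lower (*Hdc*), and a median log2 ratio of -0.35 beside 0.38 over all genes counted. *Gata2* had 4, 50, 20 and 5 UMIs, a ratio of 3.29 at 1 dpi (1.21 to 12.5) and 1.39 at 3 dpi (0.465 to 5.59).

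Immediate early genes, which respond within minutes to signals at the cell surface, had a median ratio of opposite sign on the log2 scale in the restricted set and in all members. Of 12 counted in the restricted set at 1 dpi, 5 were higher (*Fosb*, *Egr1*, *Dusp1*, *Zfp36* and *Nfkbia*) and *Ier2* was lower, with a median log2 ratio of 0.58 beside 0.20 over all genes counted, of which 25.9% were higher and 10.3% lower. *Egr1*, *Zfp36* and *Nfkbia*, with 1, 8 and 4 UMIs in Uninjured, passed the minimum of 30 through the 1 dpi library, and without the deepest cell there *Fosb* was at 1.86 (1.08 to 3.39), under the ratio of 2. At 3 dpi 4 of 12 were higher (*Egr1*, *Nr4a1*, *Dusp1* and *Zfp36*) and *Jund* was lower, with a median of 0.42 beside 0.14 over all genes counted, of which 18.5% were higher and 14.8% lower. *Egr1*, *Nr4a1* and *Zfp36*, with 1, 0 and 8 UMIs in Uninjured, passed the minimum through the 3 dpi library, so these counts too are no support for a direction. At 7 dpi 2 of 9 were higher (*Junb* and *Ier2*) and 0 lower, with a median of 0.25 beside 0.38. Over all members 4 of 18 were higher and 4 lower at 1 dpi (median -0.41 beside 0.13), 3 of 17 higher and 4 lower at 3 dpi (-0.52 beside 0.14), and 1 of 17 higher and 10 lower at 7 dpi (-1.57 beside 0.22). Over all genes counted in the members 31.9% were higher and 16% lower at 1 dpi, 30.1 and 16.8% at 3 dpi, and 39.2 and 13% at 7 dpi, so the share of immediate early genes that were higher was below that of all genes each time. *Egr1*, a zinc finger transcription factor, had 1 UMI in 1 of 11 cells in Uninjured, 105 in 7 of 15 at 1 dpi, 110 in 20 of 25 at 3 dpi and 16 in 3 of 4 at 7 dpi, a CPM ratio of 27.6 (4.85 to 1102) at 1 dpi and 30.5 (5.37 to 1217) at 3 dpi, beside 0.870 and 0.574 in all other cells. All other cells had a level of 2230 CPM in Uninjured and a UMI in 91.5% of them, with 8712 UMIs in the median cell and 798 in that of the restricted set, so that the restricted cells of Uninjured stood low, at 102.5 CPM, and those of 1 and 3 dpi, at 2833 and 3130 CPM, did not. With every cell thinned to 1000 UMIs, which left out 7, 3, 11 and 2 cells, *Egr1* was in 1 of 4, 5 of 12 and 10 of 14 cells in Uninjured, 1 dpi and 3 dpi. The mixed cells of Uninjured had 12 *Egr1* UMIs in 9029, so that over all members the ratio was 2.34 at 1 dpi (1.34 to 4.45) and 3.05 at 3 dpi (1.74 to 5.83). *Zfp36*, an RNA-binding protein that destabilises cytokine transcripts, was 3.92-fold higher at 1 dpi (1.92 to 9.28) and 4.16-fold at 3 dpi (2.05 to 9.87) in the restricted set, from 8, 119 and 120 UMIs. Over all members its ratio was 0.963 (0.648 to 1.48) and 1.53 (1.03 to 2.36). *Dusp1*, a phosphatase that ends MAP kinase signalling, was 2.23-fold (1.47 to 3.53) and 2.12-fold (1.39 to 3.36) higher in the restricted set, while over all members its intervals included 1.

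The genes named for the largest ratios in the restricted set, by a fixed rule that also asked for a change beyond that in all other cells, were mostly outside the mast cell lists. The rule asked for at least 5 UMIs in the lower library too. *Il1rl1* and *Gata2* at 1 dpi and *Tpsab1*, *Il1rl1* and *Fcer1a* at 3 dpi had fewer in Uninjured, as had *Egr1* at both. These genes, whose ratios are given above, were therefore not ranked. At 1 dpi *B2m*, the light chain of MHC class I, was 4.21-fold higher (1.87 to 11.8, beside 2.77 in other cells), *Rhob* 2.59-fold, *Tpt1* 2.52-fold (1.5 to 4.52), *Ahnak* 2.40-fold and *Ly6a* 2.24-fold, beside the immediate early genes *Zfp36*, *Fosb* and *Dusp1*. Lower at 1 dpi were the actin-binding peptide *Tmsb10*, 2.95-fold (1.88 to 4.59), then *Fcer1g*, *Myl6*, *Chchd2*, *Ppia*, the ferritin chain *Fth1* (1.77-fold, 1.35 to 2.31) and *Fau*. Higher at 3 dpi were *Tpt1*, 4.37-fold (2.64 to 7.77), *Zfp36*, *B2m*, 3.33-fold (1.46 to 9.38), *Dusp1* and *Fosb*, 1.81-fold (1.06 to 3.27). The ratios of *Hspa1b*, *Ahnak* and *Junb* were 1.98, 1.79 and 1.59, with intervals that included 1. *Hspa1b* ranked just before *Fosb*, and *Ahnak* and *Junb* ranked after it. Lower at 3 dpi were *Tmsb10*, 3.18-fold (2 to 5.04), *Mcpt4*, *Crip1*, 2.91-fold (1.64 to 5.08), *Gm10076*, *Fcer1g*, *Tyrobp* and *Fau*, with *Ccl7* last at a ratio of 0.654 (0.341 to 1.32). *Tmsb10* was thus lower in both libraries, from 38 UMIs in Uninjured, 49 at 1 dpi and 43 at 3 dpi, and in other cells its ratio was 0.645 and 0.473. At 7 dpi the 4 cells had *Ccl2* 4.41-fold higher (2.15 to 9.95), *Ccl7* 2.73-fold (1.41 to 5.53), *Ftl1*, *Serpinb1a*, *Apoe*, *Jun* and *Srgn*, and *Ubb* at a ratio of 1.46 (0.985 to 2.16), with *Tmsb10*, *Hdc*, *Fau*, *Fcer1g* and *Mcpt4* lower. Without the deepest cell the ratio of *Ccl2* was 5.61 (2.40 to 13.8), that of *Apoe* 0.752 (0.255 to 1.85) and that of *Jun* 1.35 (0.794 to 2.21). That of *Srgn* was 1.29 (0.647 to 2.44), and *Ccl7* had 0 UMIs.

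The secreted products of mast cells were few at this depth. *Il4*, the cytokine that drives IgE class switching, had 9, 15, 10 and 0 UMIs in 6 of 11, 9 of 15, 8 of 25 and 0 of 4 cells of the restricted set, with a ratio of 0.439 (0.180 to 1.14) at 1 dpi and a level 3.24-fold lower at 3 dpi (1.17 to 8.88). Among all other cells it was carried by 0.0593% in Uninjured and 0.369% at 1 dpi. *Pdgfa*, a growth factor for mesenchymal cells, had 8 UMIs in 2 of 11 cells in Uninjured and 1, 1 and 0 in the others, 30.4-fold lower at 1 dpi with a wide interval (4.08 to 1349). The monocyte chemokines *Ccl2* (10, 84, 64 and 37 UMIs) and *Ccl7* (14, 55, 33 and 32 UMIs) were present in all 4 libraries. At 7 dpi *Ccl2* was in 4 of 4 cells, and all 32 UMIs of *Ccl7* came from 1 cell. *Tnf* had 4, 3, 8 and 2 UMIs and *Il13* had 1, 0, 0 and 0. No UMI of *Il3*, *Il5*, *Il9*, *Il10*, *Bmp2* or *Bmp4* was seen in the restricted set, which at 9757, 37068, 35145 and 8180 UMIs in all allows levels of up to 307.5, 80.9, 85.4 and 367 CPM (3 UMIs). *Id1*, a direct target of BMP signalling, had 0 UMIs too, and *Id2* had 3, 36, 15 and 2. *Mki67*, a marker of cycling cells, had 0, 0, 5 and 2 UMIs in the restricted set, and it or *Top2a* had a UMI in 0, 0, 3 and 1 cells.

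The mixed cells made the 7 dpi library different. They held 97.7% of the UMIs of the members there, and the 4 proteases took a median of 0.835% of their UMIs (0.243 to 4.95) against 13.3% in the restricted set. Their median of 2630 UMIs per cell was near the 3146 of all other cells of the library. UMIs of other cell types' markers had a median of 4.71% in them and of 5.49% in all other cells, and the fibroblast list led these markers in 112 of the 114. Over all members at 7 dpi the fibroblast list summed to 41690 CPM beside 48220 in all other cells, with all 10 genes detected and *Col1a1* (collagen I) the most abundant at 12720 CPM. The chondrocyte list summed to 3697 CPM beside 7258, with *Col2a1* (collagen II) leading at 1872 CPM. In the restricted set at 7 dpi the fibroblast list summed to 1345 CPM from 11 UMIs, with *Dcn*, *Lum*, *Pdgfra* and *Prrx1* at 0. That set was chosen for few UMIs of this list and the others, so a low sum was fixed by the choice. Scrublet scores doublets against simulated pairs of cells, and a cut was set at the top 7.5% of scores in each library. Above this cut lay 1 of the 114, or 0.877%. Of the other cells 7.64% did, a share that the cut itself set. The part that transcripts of the surrounding cells had in these barcodes was not tested.

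The mixed cells of 7 dpi carried all 4 proteases, 3 of which had chosen them, and other mast cell genes beside these. *Mcpt4* gave 36.3% of their protease UMIs, *Cma1* 29.9%, *Cpa3* 17.0% and *Tpsb2* 16.7%, beside 36.0, 32.2, 12.3 and 19.5% in the restricted set of that library. *Cpa3* was higher relative to *Mcpt4* in the mixed cells, at 0.469 UMIs per *Mcpt4* UMI (0.423 to 0.519) against 0.342 (0.282 to 0.412). Per 1000 protease UMIs they had 7.07 *Hdc* UMIs and 3.08 of *Kit*, from 23 and 10 UMIs. The restricted set had 9.78 and 4.89, from 12 and 6 UMIs, of which 10 and 5 were in its deepest cell. The 95 cells with 5 to 9 rule UMIs had 10.1 and 9, from 9 and 8 UMIs. *Hdc* was detected in 17 of the 114, *Kit* in 9 and *Fcer1a* in 21, or 14.9, 7.89 and 18.4%. Other cells of 7 dpi had 1.31, 0.572 and 0.0611% at a median of 3146 UMIs. The 95 cells with 5 to 9 rule UMIs had 8.42, 8.42 and 7.37% at a median of 1899 UMIs. The endothelial marker *Cldn5* (claudin 5), a tight junction protein of vessels, was in 17 of the 114, or 14.9%, beside 0.725% of other cells and 0 of the 95 cells with 5 to 9 rule UMIs, and the endothelial list summed to 499.5 CPM over all members at 7 dpi beside 92.2 CPM.

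Over all members, the comparison of 7 dpi with Uninjured was mostly one of mixed cells with the cells of Uninjured. Of 1664 genes counted, 39.2% were higher and 13% lower. All 5 marker genes were lower, as were 6 of the 8 countable mast cell genes outside the rule, while the fibroblast genes *Col1a1*, *Col1a2*, *Col3a1* and *Sparc* were higher and *Dcn* lower. *Prrx1* and *Postn* had 0 and 1 UMIs in the members of Uninjured and 115 and 961 at 7 dpi. Of the chondrocyte list 9 genes had 0 UMIs in the members of Uninjured and 30 to 652 at 7 dpi, so these and the former pair entered the count only through 7 dpi and no direction is read from their number. *Hdc* was 29.7-fold lower (19.1 to 46.6), *Fcer1g* 12.2-fold (8.91 to 16.6), *Mcpt4* 12.1-fold (11.1 to 13.0) and *Cma1* 7.17-fold (6.47 to 7.93). *Col1a1* was 18.4-fold higher (10.7 to 34.5), the matrix Gla protein *Mgp* 7.32-fold and *Fn1* (fibronectin) 6.81-fold. *Fstl1* followed at 5.64-fold and *Col1a2* at 4.86-fold (3.36 to 7.33), with *Rack1* and *Igfbp7* after them. *Rgs1*, *Tyrobp*, *Hist1h2bc* and *Klf2* completed the lower genes, at 7.18-, 6.74-, 6.55- and 5.70-fold. The gene model *Gm42418*, which overlaps ribosomal RNA, had 6 UMIs in the members of Uninjured and 1311, 492 and 11327 in the others. In the restricted set of 7 dpi *Cma1* was at 1.12 times its Uninjured level.

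Cells with *Cpa3* alone made up most of the member UMIs at 1 dpi. The 4 cells at 1 dpi had 14627 to 36054 UMIs each and held 73.7% of the UMIs of the members, and the 2 at 3 dpi had 11076 and 17056 and held 30.4%. In them *Cpa3* had 737 CPM at 1 dpi and 1031 CPM at 3 dpi, beside 17700 and 16820 in the restricted set, and *Cma1*, *Tpsab1*, *Mrgprb1* and *Il4* had 0 UMIs. They carried *Mpo* at 3040 and 4230 CPM, *Prtn3* at 974 and 1671 CPM, *Ctsg* at 783 and 569 CPM and *Elane* at 783 and 178 CPM, genes of the primary granules of immature neutrophils and monocytes, which were named after their values were seen. *Mpo*, *Prtn3* and *Elane* had 0 UMIs in the restricted set. *Cd34*, a marker of progenitors, had 355 and 675 CPM in them, *Kit* 164 and 213 CPM, *Gata2* 182 and 71.1 CPM and *Ms4a2* 100 and 178 CPM, and all 6 had a UMI of *Mki67* or *Top2a*. Their lack of *Mcpt4* and *Tpsb2* was how they were set apart, and the other protease that could speak for the label, *Cma1*, was at 0 in them. The marker lists used here do not name them.

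Over all members, the comparison of 1 dpi with Uninjured held these cells, and 31.9% of 656 genes counted were higher and 16% lower. At 3 dpi 30.1% of 345 were higher and 16.8% lower. The largest ratios at 1 dpi were *Gm42418* (27.5-fold), *Rack1* (6.47-fold), *Hsp90aa1* (4.58-fold), *Npm1* (4.43-fold), *Eef2*, *Serbp1*, *Eef1a1* and *Hnrnpa2b1*, several of which serve translation, and lower were *Col3a1* (11.3-fold), *Sparc* (8.28-fold), *S100a6*, *Col1a2*, *Mcpt4* (6.40-fold), *Malat1* (6.01-fold), *Elob* and *Selenow*. At 3 dpi *Gm42418* (16.7-fold), *Rack1*, *Npm1*, *Tpt1*, *Egr1*, *Hsp90aa1*, *Zfp36l2* and *B2m* led, and *Col3a1*, *Sparc*, *Gsn*, *S100a6*, *Sec61g*, *Mcpt4* (4.92-fold lower), *Malat1* and *Atp5e* were the lowest. *Mcpt4* was lower at 1 and 3 dpi both in all members and in the restricted set, while in all other cells its ratio was 0.287 at 1 dpi and 1.82 at 3 dpi.

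Basophils, the nearest relatives of mast cells in these libraries, were set beside them. Cells with at least 3 UMIs of *Mcpt8* and none of *Mcpt4* or *Tpsb2* numbered 1, 48, 25 and 1, where the cell at 7 dpi had 3 *Mcpt8* UMIs and none of *Cpa3*, *Hdc*, *Fcer1a* or *Prss34* in 18861, so the name basophil was not borne out for it. They were 0.442% of cells at 1 dpi (0.326 to 0.586) and 0.177% at 3 dpi (0.115 to 0.261). Their *Cpa3* level was 645 CPM at 1 dpi and 558 at 3 dpi, beside 17700 and 16820 in the restricted set of mast cells, and *Cma1* and *Mrgprb1*, which the gate did not use, had 0 UMIs. *Hdc* had 831 and 632 CPM in them beside 4128 and 3813, *Fcer1a* 335 and 205 beside 971 and 1309, *Gata2* 558 and 353 beside 1349 and 569, and *Il4* 65.9 and 26.9 beside 405 and 284.5. The basophil protease *Prss34* had 7463 and 4337 CPM in the basophils, and 1127, 432, 683 and 0 CPM in the restricted mast cells of the 4 libraries. *Hdc*, *Fcer1a*, *Gata2* and *Il4* were thus at a lower level in the basophils at both times, and *Prss34* at a higher one. The share of basophils was highest at 1 dpi, with an interval that did not overlap that of any other library. The share of restricted mast cells, which the fixed limit of 1% defined, was highest at 3 dpi, with an interval that overlapped those of Uninjured and 1 dpi. Relative to all cells with a *Ptprc* UMI, of which there were 1443, 5696, 5230 and 3579, the number of restricted mast cells came to 0.762, 0.263, 0.478 and 0.112%, which is a ratio and not a share, since 2 of 11, 6 of 15, 6 of 25 and 0 of 4 of them had a *Ptprc* UMI.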

How the data were processed

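The deposited matrices held counts of UMIs per gene and barcode, which the authors made from 10x Genomics libraries with Cell Ranger 5.0.0 on mm10, per the submitters' processing notes, which also name Seurat 3.1.1. The study's methods describe down-sampling of reads between libraries and removal of doublets and of cells beyond 2 SD. The matrices still held cells beyond 2 SD on a logarithmic scale, a scale that those methods do not name. Neither a doublet filter nor a limit of 2 SD was applied here outside the alternatives. Cells with over 10% mitochondrial UMIs were left out. The mast cell rule, the gene lists and the comparisons were chosen with earlier results of these data known, and the division into restricted, mixed and Cpa3-only cells was made after seeing the data.

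UMIs were summed over cells per library and given as CPM of all UMIs of those cells. With 1 library a time point no test was made. Intervals were exact Poisson for sums, Clopper-Pearson for shares and conditional binomial for ratios, at 95%. A gene was counted in a comparison from 30 UMIs in both libraries together, and a count of 0 was set to a floor of 3 UMIs for levels and ratios. Library totals were 112317902, 91146335, 116346301 and 129007669 UMIs. Named were the 5 markers, members of the gene lists, the 20 genes with the largest mean log2 ratio to other cells among those with 30 UMIs and higher in all 4 libraries, and, for each injured library, the 8 genes with the largest ratio in each direction, with at least 30 UMIs in the higher and 5 in the lower library, detection in 20% of the cells of the higher library and a change past 1.5-fold relative to other cells. Mitochondrial genes and ribosomal protein genes whose symbols begin with Rpl or Rps were left out of both rankings. Ribosomal genes under other symbols were kept. A gene that the rule named is not reported here. Scrublet in scanpy 1.11.5 scored doublets and removed none. Python 3.11.15, numpy 2.4.6, scipy 1.17.1 and pandas 2.3.3 were used, and the steps were tested on simulated data.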

Additional observations from a re-analysis of the deposited data

How the results depend on the processing

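No paired analysis was possible because each time point had 1 library. These alternatives change which cells are chosen or how their UMIs are summed, and the restricted limits, chosen after seeing the data, are among them. The limit of 2 SD was taken on the logarithm of UMIs and of genes per library. The study's methods name no logarithm, so its own filter may differ. With this limit the share of cells chosen in Uninjured was 0.00895%, which is 1 cell. Every value within 2 SD thus rests on 1 Uninjured cell. In the restricted set the share in Uninjured was 0.0930%, where all members gave 0.169%. At 1 dpi it was 0.415% with no limit on *Mcpt8*. At 7 dpi it was 0.925% from 5 UMIs, 0.174% from 20 UMIs, 0.421% with 0.5% of UMIs required, and 0.0174 and 0.0217% in the restricted set at limits of 1 and 2%, so 7 dpi was the lowest library with the limit on other types' markers. From 20 UMIs it was below the 0.227% of 3 dpi, so its rank also depended on the minimum of UMIs.

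Of the genes counted over all members, 8.89% were lower at 1 dpi with no limit on *Mcpt8*, 48.5% higher at 3 dpi and 73.5% higher at 7 dpi within 2 SD, and 20% higher at 1 dpi and 16.7% at 3 dpi with cells thinned to 1000 UMIs. In the restricted set 10.3% were lower at 1 dpi, 18.5% higher at 3 dpi and 23.9% higher at 7 dpi, or 15.8% at 7 dpi with a limit of 2%. Of the listed genes over all members, 21.3% were higher and 38.7% lower at 1 dpi, 21.2% lower at 3 dpi, and 31.3% higher and 33.9% lower at 7 dpi. With 0.5% of UMIs required 17.6% were lower at 1 dpi. With no limit on *Mcpt8* it was 34.7% higher and 23.5% lower at 1 dpi. Within 2 SD it was 37.5% higher and 18.8% lower at 1 dpi and 63.6% higher at 7 dpi. Thinned, it was 23.1% lower at 1 dpi and 12.5% at 3 dpi. In the restricted set it was 7.32, 9.76 and 8.33% lower at 1, 3 and 7 dpi, and with 2% it was 34.1% higher and 9.09% lower at 1 dpi and 19.2% higher and 11.5% lower at 7 dpi. From 10 UMIs 39.3% were higher at 1 dpi, and with no minimum and 0.5 UMIs added 13.7% were higher at 7 dpi. With 100 CPM added 43 genes led the mast cells over other cells. Without thinning, *Kit* was in 9.32% and *Hdc* in 17.0% of members at 7 dpi, and *Hdc* in 95.2% at 1 dpi. Of the members that could be thinned to 1000 UMIs, these shares were 3.64, 9.09 and 76.5%.

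Genes that were lower over all members by a ratio of 1/2 or less turned positive on the log2 scale as follows. At 1 dpi, with 0.5% of UMIs required, *Cma1* was 0.39, *Tpsb2* 0.59, *Hdc* 0.47, *Apoe* 0.37 and *Ccl7* 0.78. Within 2 SD *Cma1* was 0.44, with the mean of CPM over cells *Ccl7* was 0.80, and thinned *Tpsb2* was 0.38, *Apoe* 0.35 and *Ccl7* 0.94. In the restricted set at 1 dpi *Tpsb2* was 0.42, *Apoe* 0.022 and *Ccl7* 0.048, and at 7 dpi *Cma1* was 0.17, *Cpa3* 0.86, *Tpsb2* 1.24, *Fcer1a* 2.42, *Srgn* 0.81 and *Apoe* 1.03. With the 2% limit *Cma1* was 0.13, *Tpsb2* 0.51, *Hdc* 0.28, *Apoe* 0.20 and *Ccl7* 0.55 at 1 dpi, and *Cma1* 0.27, *Cpa3* 0.96, *Tpsb2* 1.06, *Fcer1a* 2.31, *Srgn* 1.01, *Mrgprb1* 0.14 and *Apoe* 0.97 at 7 dpi. Smaller ratios also changed sign under several settings, among them in the restricted set *Cpa3* (-0.44 to 0.80) and *Zfp36* (-0.055 to 1.97) at 1 dpi and *Tpsb2* (-0.68 to 0.20) and *Cma1* (-0.40 to 0.14) at 3 dpi. The cause was not tested beyond the choice of cells itself. The restricted set at 7 dpi rests on 4 cells, of which 1 held 66% of the UMIs.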
